A study of Homo sapiens with 12 samples.

Results

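The genes described here are 36 genes of cell junctions and intermediate filaments, read in 3 human hepatocellular carcinoma lines with and without lactate. They were chosen by name as cadherins, claudins, other tight junction genes, desmosome genes, keratins with vimentin, and 3 genes of epithelial identity, and all 36 were found once among the 62710 genes of the tables. HLF, SNU475 and PLC/PRF/5 are established liver cancer lines. RNA sequencing libraries were made from control cells and from cells kept for 24 h in 20 mM lactate, given as lactic acid, with 2 libraries for each of the 6 combinations of line and treatment and 12 in all. The labels name no deletion or transgene in any group. Nothing in the labels ties the 2 libraries of a group to separate cultures. The p-values therefore reflect only how far such libraries lie apart, and that spread may be technical. The comparisons ask how the genes differ between the untreated lines and how they differ with lactate within each line.

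Epithelial cells hold together through 3 kinds of junction. Adherens junctions are built on cadherins, which bind across the gap between cells and are tied to actin by catenins. Tight junctions are strands of claudins with occludin and its MARVEL-domain relatives, held by scaffold proteins such as ZO-1, and they seal the space between cells. Desmosomes are built on desmogleins and desmocollins, which reach the keratin filaments through plakoglobin, plakophilins and desmoplakin. Hepatocytes make keratins 8 and 18, while keratins 7 and 19 belong to bile duct cells, and vimentin is the filament of mesenchymal cells. Liver cancer lines differ in how much of this epithelial program they keep.

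The libraries held between 16533437 and 22187849 counts. Of the 36 genes, 34 had enough counts to be tested, and CLDN6 and CLDN14 did not. Levels within a gene are given as CPM, counts scaled to a common library size, and levels between genes only as the deposited TPM, which is per transcript length. A difference was called at an adjusted p under 0.05 in edgeR's quasi-likelihood test over all 18355 genes tested. The tissue label of the samples is liver. The summed TPM of 18 hepatocyte markers was 4452 to 9373 in PLC/PRF/5, with none of them at 0 counts, against 14.9 to 21.9 in HLF and 6.16 to 11.4 in SNU475, where 6 to 11 of the 18 were at 0 counts. The summed TPM of 10 stellate cell and fibroblast markers was 954.5 to 1854 in SNU475, 25.9 to 65.7 in HLF and 5.05 to 8.27 in PLC/PRF/5. The part of these line-wide differences in the results below was not tested. The SNU475 libraries numbered 1 and 2 also stood apart from each other in both treatments. Mitochondrially encoded transcripts took 8.0% and 8.5% of counts in those numbered 1 and 15.05% and 13.88% in those numbered 2.

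Promoters of 4 of the genes are printed here because the results turn on these genes: DSP and MARVELD2 were nearly silent in HLF, CLDN7 differed between the SNU475 libraries numbered 1 and 2, and VIM ran the other way between the lines. Each is the 300 bases from RefSeq (GRCh38.p14) around an annotated start, on the gene's own strand. Capitals mark CACCTG, the form of the CANNTG E-box bound by repressors of epithelial genes such as SNAI1 and ZEB1, and AACCGG, part of the site of the epithelial factors GRHL1 and GRHL2, each on either strand.
DSP, chr6:7541421-7541720, plus strand: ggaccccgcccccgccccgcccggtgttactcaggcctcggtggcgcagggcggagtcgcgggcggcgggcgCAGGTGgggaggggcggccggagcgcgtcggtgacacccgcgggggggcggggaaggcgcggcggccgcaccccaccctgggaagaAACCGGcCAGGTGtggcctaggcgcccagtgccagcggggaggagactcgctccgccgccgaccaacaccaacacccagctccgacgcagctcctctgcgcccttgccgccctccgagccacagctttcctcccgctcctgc
MARVELD2, chr5:69414866-69415165, plus strand: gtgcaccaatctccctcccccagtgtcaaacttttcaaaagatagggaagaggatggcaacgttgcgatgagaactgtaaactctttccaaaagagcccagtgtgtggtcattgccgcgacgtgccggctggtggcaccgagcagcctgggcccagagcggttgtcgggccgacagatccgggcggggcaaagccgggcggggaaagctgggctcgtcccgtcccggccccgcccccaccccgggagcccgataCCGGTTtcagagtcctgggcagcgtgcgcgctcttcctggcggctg
CLDN7, chr17:7262429-7262728, minus strand: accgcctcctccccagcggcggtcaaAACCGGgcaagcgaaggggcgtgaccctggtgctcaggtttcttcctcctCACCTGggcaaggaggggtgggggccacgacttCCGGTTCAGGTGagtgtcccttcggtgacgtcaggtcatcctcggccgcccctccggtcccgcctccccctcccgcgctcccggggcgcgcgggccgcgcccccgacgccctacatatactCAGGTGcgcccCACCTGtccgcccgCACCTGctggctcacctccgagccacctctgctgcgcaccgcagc
VIM, chr10:17227991-17228290, plus strand: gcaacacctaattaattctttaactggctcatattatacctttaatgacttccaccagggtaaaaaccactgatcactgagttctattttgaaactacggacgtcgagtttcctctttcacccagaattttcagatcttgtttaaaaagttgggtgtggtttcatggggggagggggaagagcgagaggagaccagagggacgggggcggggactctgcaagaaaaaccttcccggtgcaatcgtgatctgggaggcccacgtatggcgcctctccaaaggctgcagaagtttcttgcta
The table held 33 promoters for 21 of the 36 genes. The word CACCTG was in 39.4% of these 33 and in 20.6% of all 35116 promoters, every CACCTG also being a CANNTG. The wider word CANNTG was in 60.6% and 68.7%, and AACCGG in 18.2% and 7.2%. The CLDN7 window held CACCTG 5 times and AACCGG 2 times, the DSP window held CACCTG 2 times and AACCGG 1 time, and the MARVELD2 window held AACCGG alone. A second CLDN7 start has a window at chr17:7263164-7263463, which held neither CACCTG nor AACCGG. The VIM window held none of the 3 words. Among genes read at like levels in all 3 lines, the CTNNB1 and CLDN12 windows held CACCTG 0 times. The window of DSG2, also read in all 3 lines, held it 2 times. The windows of OCLN, which was highest in HLF, held it 1 and 2 times. CDH1 had no promoter in the set. Whether these words bear on the levels was not tested.

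Between untreated PLC/PRF/5 and HLF, 20 of the 34 tested genes were called higher in PLC/PRF/5, where 21.7% of all genes tested were. A further 6 were called lower, where 21.3% of all genes were. Between untreated PLC/PRF/5 and SNU475, 15 were called higher in PLC/PRF/5 beside 22.4% of all genes, and 6 lower beside 26.3%. Without both SNU475 libraries numbered 2, the 6 became 11, beside 26.3% of all genes in that fit. Between untreated SNU475 and HLF, 10 were called higher in SNU475 beside 21.9% of all genes, and 7 lower beside 17.2%. The median log2 difference of the 34 genes was 1.07 for PLC/PRF/5 against HLF, 0.41 for PLC/PRF/5 against SNU475 and 0.07 for SNU475 against HLF, against medians of 0, -0.03 and 0 over all genes. The 3 comparisons share their control libraries, so they are not independent of each other.

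**Figure D1:**
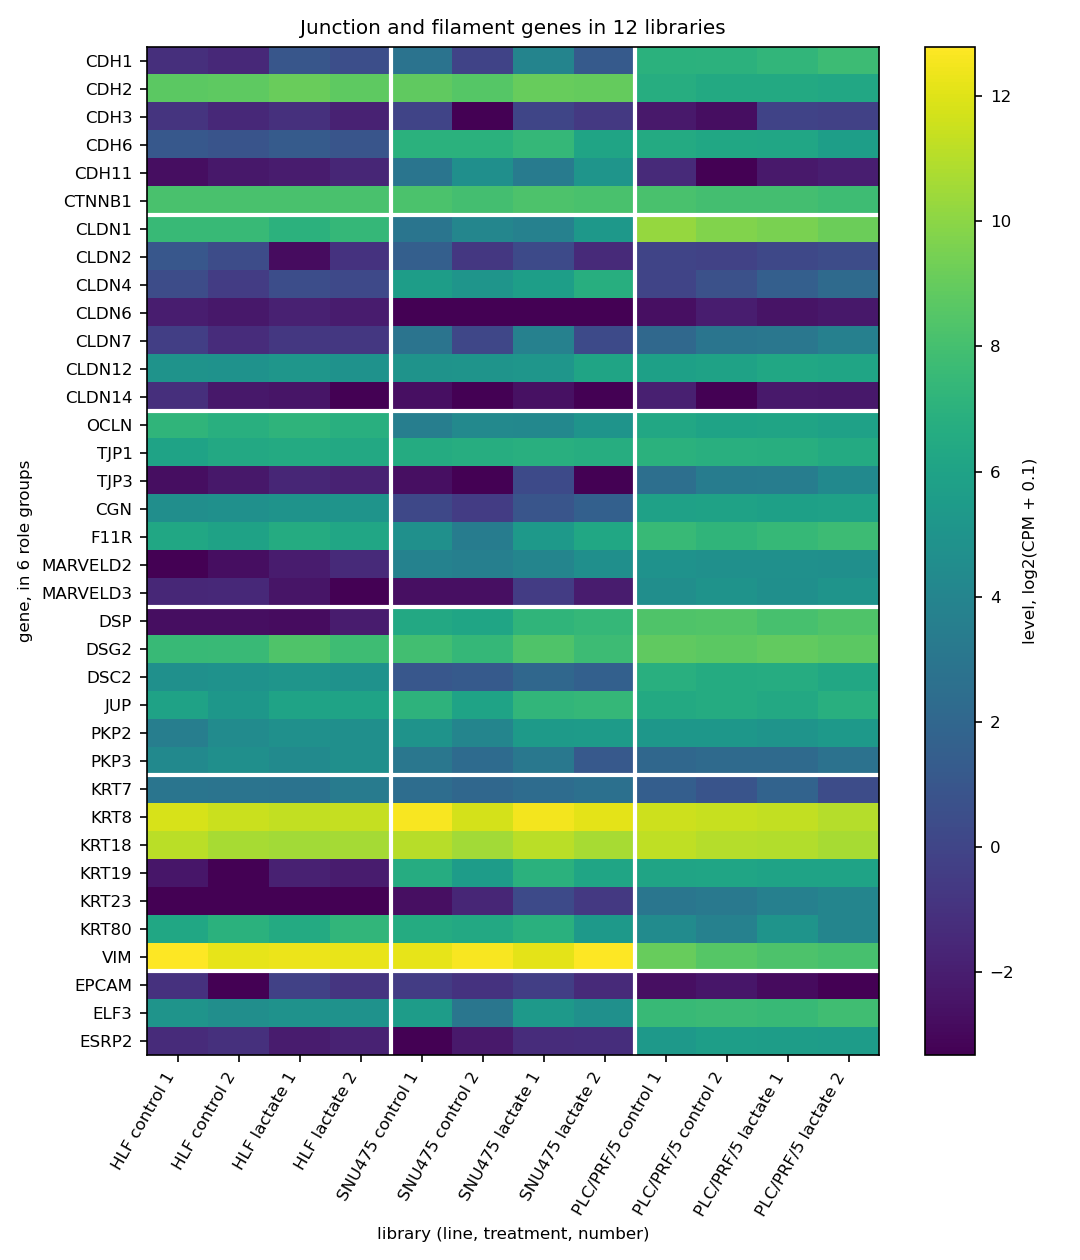
Levels of the 36 genes (rows, in 6 groups by role) in the 12 libraries (columns, 4 per line), colored by log2(CPM + 0.1), where yellow is high and dark blue low. KRT8, KRT18 and CTNNB1 are at like levels in all 3 lines, DSP and KRT19 are dark in the 4 HLF libraries, and VIM is dimmer in the 4 PLC/PRF/5 libraries.

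Of the cadherins, the epithelial cadherin CDH1 was high in PLC/PRF/5 alone and the neural cadherin CDH2 was higher in the other two lines. CDH1 was at 126 and 129 CPM in the PLC/PRF/5 controls, at 6.81 and 0.863 CPM in the SNU475 controls and at 0.348 and 0.264 CPM in the HLF controls. The PLC/PRF/5 libraries stood far above both other lines, and the 2 SNU475 libraries lay apart from each other, the first being higher. The log2 difference of CDH1 was 8.67 ± 1.08 (SE) between PLC/PRF/5 and HLF (adjusted p = 6.98e-05, edgeR) and 5.05 ± 0.84 between PLC/PRF/5 and SNU475 (adjusted p = 5.17e-04, edgeR). The second of these was 7.2 without SNU475 control 1 and 4.23 without SNU475 control 2, and was called in both. CDH2 was at 103 and 88.7 CPM in the PLC/PRF/5 controls, at 468 and 378 CPM in the SNU475 controls and at 416 and 436 CPM in the HLF controls. It was lower in PLC/PRF/5 than in HLF by a log2 difference of -2.15 ± 0.19 (adjusted p = 4.28e-06, edgeR) and lower than in SNU475 by -2.14 ± 0.19 (adjusted p = 4.96e-06, edgeR). HLF and SNU475 overlapped in CDH2. In TPM the 2 cadherins were level in the PLC/PRF/5 controls, with CDH2 at 1 and 0.781 times CDH1, while CDH2 was 1460 and 1070 times CDH1 in the HLF controls and 85.2 and 542 times in the SNU475 controls. The HLF ratios rest on 7 and 5 counts of CDH1, at 0.08 and 0.15 TPM, so their size is uncertain.

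CDH6 and CDH11 also differed between the lines. CDH6, a cadherin of developing kidney, was at 124 and 123 CPM in the SNU475 controls and at 92.4 and 78.6 CPM in the PLC/PRF/5 controls, but at 2.09 and 1.69 CPM in the HLF controls. It was higher than in HLF by 6.03 ± 0.44 in SNU475 and by 5.50 ± 0.43 in PLC/PRF/5 on the log2 scale (adjusted p = 1.96e-06 and 1.83e-06, edgeR). CDH11, the cadherin of mesenchymal cells and osteoblasts, had 133 and 443 counts in the SNU475 controls, but 1 and 2 in the controls of HLF and 5 and 0 in those of PLC/PRF/5. Pooled over the group and scaled to depth, it was 214-fold higher in SNU475 than in HLF, with a counting interval at 95% from 72.7 to 1040 (adjusted p = 2.15e-04, edgeR). The fitted log2 difference of 7.63 was 8.26 without SNU475 control 1 and 6.51 without SNU475 control 2. CDH3, placental cadherin and the neighbor of CDH1 on chromosome 16 with no coding gene of the RefSeq table between them, had at most 16 counts in any control library and was called in no comparison. CTNNB1, the catenin that binds cadherin tails and also carries Wnt signals, was at 252 to 302 CPM in all 6 control libraries and was called in none. In the SNU475 comparison with HLF, the call of CDH1 rested on few counts: its log2 difference of 3.62 ± 1.11 (adjusted p = 0.0226, edgeR) was 1.47 (adjusted p = 0.391) without SNU475 control 1, and the call was also lost without HLF control 1 (adjusted p = 0.104) or HLF control 2 (adjusted p = 0.122).

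Among the 7 claudins, SNU475 had another leading gene than HLF and PLC/PRF/5. CLDN1, a sealing claudin of many epithelia, took 92.7% and 88.4% of the summed TPM of the 7 claudins in the PLC/PRF/5 controls and 82.7% and 83.7% in the HLF controls, but 4.23% and 12.9% in the SNU475 controls. In SNU475 CLDN4 led these 7, with 61.1% and 57.0%, against at most 0.935% in the controls of the other lines. CLDN11, a claudin outside these 7, was also read in SNU475 and is described with the further genes. CLDN1 was at 1218 and 868 CPM in the PLC/PRF/5 controls, 188 and 185 CPM in the HLF controls and 7.71 and 16.9 CPM in the SNU475 controls, with no overlap between lines. Its log2 difference was 2.48 ± 0.45 for PLC/PRF/5 against HLF (adjusted p = 9.78e-04, edgeR) and -3.93 ± 0.49 for SNU475 against HLF (adjusted p = 9.22e-05, edgeR), the second being -4.58 without SNU475 control 2. CLDN4 was at 50.7 and 33.8 CPM in the SNU475 controls, and at 1.24 and 0.632 CPM in HLF and 0.902 and 1.49 CPM in PLC/PRF/5, which overlapped. It was higher in SNU475 than in HLF by 5.48 ± 0.50 on the log2 scale (adjusted p = 1.01e-05, edgeR; 6.08 without HLF control 1) and lower in PLC/PRF/5 than in SNU475, at -5.12 ± 0.48 (adjusted p = 8.32e-06, edgeR).

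CLDN12, a widely expressed claudin, was the most even, at 29.2 to 62.2 CPM in the controls. It was higher in PLC/PRF/5 than in HLF by 0.999 ± 0.26 and than in SNU475 by 0.92 ± 0.26 (log2, adjusted p = 0.00974 and 0.0137, edgeR). Both calls were lost without PLC/PRF/5 control 2 (adjusted p = 0.0596 and 0.0747), the first also without HLF control 2 (adjusted p = 0.0528) and the second also without SNU475 control 1 (adjusted p = 0.0628). CLDN7, an epithelial claudin, was at 4.29 and 7.51 CPM in the PLC/PRF/5 controls, 7.31 and 0.978 CPM in the SNU475 controls and 0.696 and 0.316 CPM in the HLF controls. It was called higher than in HLF in PLC/PRF/5 (3.52 ± 1.11, adjusted p = 0.0234, edgeR) and in SNU475 (3.01 ± 1.10, adjusted p = 0.0491, edgeR). The second of these was 0.93 (adjusted p = 0.587) without SNU475 control 1 and was lost under 9 of the 12 fits that left out 1 library, and the first was lost without HLF control 1, HLF control 2 or PLC/PRF/5 control 2 (adjusted p = 0.0848, 0.141 and 0.0919). CLDN2, which forms pores for cations, was at 0.518 to 2.87 CPM in the controls and was called in no comparison. CLDN6, a claudin of embryonic epithelia, and CLDN14 had at most 3 and 7 counts in a control library, and CLDN6 had 0 counts in all 4 SNU475 libraries.

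All 7 of the other tight junction genes were called between PLC/PRF/5 and HLF, where 43% of all genes were. Of these 7, 6 were higher in PLC/PRF/5, beside 21.7% of all genes. Against SNU475, 6 of the 7 were called higher in PLC/PRF/5, beside 22.4% of all genes. The strand proteins came in 3 patterns. MARVELD2, which is tricellulin and seals the corners where 3 cells meet, had 522 and 554 counts in the PLC/PRF/5 controls, 246 and 214 in the SNU475 controls, and 0 and 1 in the HLF controls. It was 1110-fold higher in PLC/PRF/5 than in HLF, with a counting interval from 199 to 44000, and 512-fold higher in SNU475 than in HLF, with an interval from 91.4 to 20200 (adjusted p = 2.31e-07 and 1.04e-06, edgeR). It was also higher in PLC/PRF/5 than in SNU475 by 1.12 ± 0.30 on the log2 scale (adjusted p = 0.0100, edgeR), but not without SNU475 control 2 or PLC/PRF/5 control 1 (adjusted p = 0.0515 and 0.0592). MARVELD3, the third relative of occludin, had 440 and 620 counts in PLC/PRF/5 but 1 and 1 in SNU475 and 5 and 5 in HLF. Its log2 difference of PLC/PRF/5 against HLF was 6.73 ± 0.56 (adjusted p = 2.93e-06, edgeR), and it was 493-fold higher than in SNU475, with an interval from 136 to 4070 (adjusted p = 1.87e-06, edgeR). OCLN, occludin itself, ran differently: it was at 152 and 112 CPM in the HLF controls, 80.8 and 64.0 CPM in the PLC/PRF/5 controls and 11.98 and 19.3 CPM in the SNU475 controls. It was lower in SNU475 than in HLF by a log2 difference of -3.08 ± 0.33 (adjusted p = 3.34e-05, edgeR) and lower in PLC/PRF/5 than in HLF by -0.87 ± 0.30 (adjusted p = 0.0384, edgeR). OCLN and MARVELD2 are neighbors on chromosome 5 with no coding gene of the RefSeq table between them, and HLF, which had the most OCLN, had 1 count of MARVELD2 in its 2 control libraries.

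The scaffold genes CGN and TJP3 differed widely between the lines. CGN, cingulin, which links tight junctions to the cytoskeleton, was at 58.6 and 60.8 CPM in the PLC/PRF/5 controls, 24.6 and 27.0 CPM in HLF and 1.01 and 0.633 CPM in SNU475. It was lower in SNU475 than in HLF by -4.96 ± 0.30 on the log2 scale (adjusted p = 6.67e-07, edgeR) and higher in PLC/PRF/5 than in HLF by 1.21 ± 0.23 (adjusted p = 0.00159, edgeR). TJP3, which is ZO-3, had 102 and 221 counts in the PLC/PRF/5 controls against 1 and 2 in HLF and 1 and 0 in SNU475. It was 111-fold higher than in HLF, with a counting interval from 37.7 to 542, and 300-fold higher than in SNU475, with an interval from 53.5 to 11900 (adjusted p = 5.67e-04 and 4.00e-04, edgeR). TJP1, which is ZO-1, was by contrast at 65.2 to 122 CPM in every control library, and was called only between PLC/PRF/5 and HLF (0.66 ± 0.18, adjusted p = 0.0131, edgeR). F11R, the adhesion molecule JAM-A, was at 181 and 147 CPM in PLC/PRF/5, 77.5 and 62.0 CPM in HLF and 26.7 and 10.6 CPM in SNU475, and was called in all 3 comparisons. Its log2 difference moved without SNU475 control 1 from 3.14 to 3.95 for PLC/PRF/5 against SNU475 and from -1.90 to -2.71 for SNU475 against HLF. The calls between PLC/PRF/5 and HLF of 3 of these genes each hung on a few libraries. OCLN lost its call under 7 of the 12 fits without 1 library, TJP1 without HLF control 1 or PLC/PRF/5 control 1, and F11R without HLF control 1, HLF control 2 or PLC/PRF/5 control 1 and also with the replicate number as a block (adjusted p = 0.0555).

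All 6 desmosome genes were called between PLC/PRF/5 and HLF, where 43% of all genes were. Of these 6, 5 were higher in PLC/PRF/5, beside 21.7% of all genes. Desmoplakin, DSP, which ties the plaque to keratin, had the lowest adjusted p of the 34 genes. It had 5722 and 6732 counts in the PLC/PRF/5 controls and 1493 and 1232 in the SNU475 controls, but 1 and 1 in the HLF controls. It was 6440-fold higher in PLC/PRF/5 than in HLF, with a counting interval from 1780 to 53100, and 1520-fold higher in SNU475 than in HLF, with an interval from 419 to 12500 (adjusted p = 1.09e-08 and 4.16e-08, edgeR). Between PLC/PRF/5 and SNU475 it differed by 2.09 ± 0.19 on the log2 scale (adjusted p = 7.07e-06, edgeR). HLF, with nearly no desmoplakin transcripts, did carry those of the desmosomal cadherins. DSG2, the desmoglein of simple epithelia, was at 186 and 197 CPM in the HLF controls, 242 and 169 CPM in SNU475 and 458 and 420 CPM in PLC/PRF/5. It was higher in PLC/PRF/5 than in HLF by 1.20 ± 0.26 and than in SNU475 by 1.10 ± 0.26 (log2, adjusted p = 0.00316 and 0.00468, edgeR). DSC2, its desmocollin partner, was at 116 and 97.4 CPM in the PLC/PRF/5 controls, 26.7 and 29.0 CPM in HLF and 1.97 and 2.30 CPM in SNU475. The log2 difference of DSC2 was -3.70 ± 0.25 for SNU475 against HLF (adjusted p = 1.05e-06, edgeR) and 5.64 ± 0.26 for PLC/PRF/5 against SNU475 (adjusted p = 5.60e-08, edgeR). HLF thus had DSC2 with nearly no DSP, and SNU475 had DSP with little DSC2.

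The linker genes JUP and PKP2 differed less between the lines than DSP and DSC2. The linker PKP3 differed more than DSG2 in both comparisons with HLF. JUP, plakoglobin, which serves both desmosomes and adherens junctions, was at 36.1 to 137 CPM in the 6 controls. It was called higher than in HLF in PLC/PRF/5 (0.94 ± 0.33, adjusted p = 0.0393, edgeR) and in SNU475 (1.06 ± 0.33, adjusted p = 0.0258, edgeR), and both calls were lost without HLF control 2 (adjusted p = 0.247 and 0.190). The first was lost under 5 of the 12 fits without 1 library, and the second was 0.41 without SNU475 control 1 (adjusted p = 0.331). PKP2, the plakophilin of heart and simple epithelia, was at 11.9 to 37.2 CPM and was called between PLC/PRF/5 and HLF only (1.13 ± 0.33, adjusted p = 0.0171, edgeR). PKP3, a plakophilin of most desmosomes, ran the other way, at 20.2 and 26.1 CPM in the HLF controls, 8.38 and 4.78 CPM in SNU475 and 4.12 and 4.73 CPM in PLC/PRF/5. It was lower than in HLF in PLC/PRF/5 by -2.39 ± 0.52 and in SNU475 by -1.81 ± 0.51 (log2, adjusted p = 0.00316 and 0.0145, edgeR). The second PKP3 call was lost without HLF control 2 or SNU475 control 2 (adjusted p = 0.0794 and 0.0983), and the PKP2 call without HLF control 1 or either PLC/PRF/5 control.

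**Figure D2:**
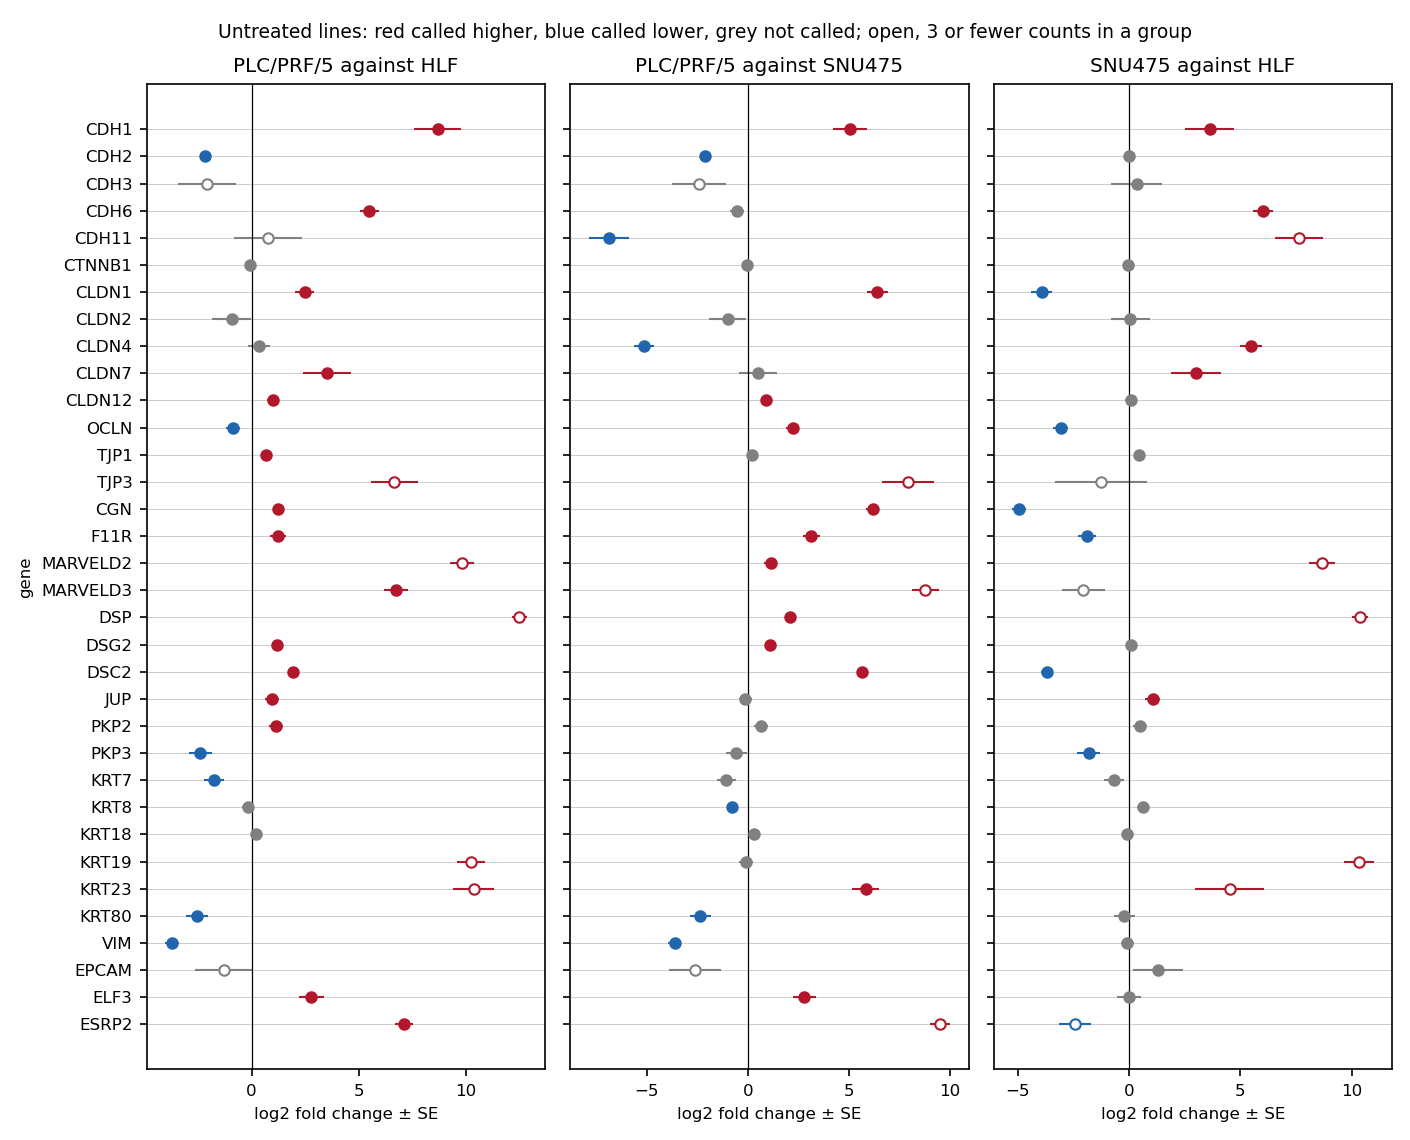
Log2 fold change ± SE (x axis) of the 34 tested genes (y axis) between untreated lines, 2 libraries a group; red points were called higher, blue lower, grey not called, and open points have 3 or fewer counts in a group, so that their fitted fold is no bound. DSP, MARVELD2 and KRT19 are far to the right in both comparisons with HLF, while CDH2, KRT80 and VIM are to the left in both comparisons of PLC/PRF/5. The SE is derived from the test's F statistic, and for open points it can be narrower than counting error.

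The keratin pair of simple epithelia was shared by the 3 lines. KRT8 was at 2712 to 6285 CPM and its partner KRT18 at 1492 to 2420 CPM in the 6 controls, and the pair made 97.4% to 99.1% of the summed TPM of the 6 keratins in every library. KRT18 was called in no comparison. KRT8 was called lower in PLC/PRF/5 than in SNU475 (-0.77 ± 0.28, adjusted p = 0.0411, edgeR), a call that was lost under 9 of the 12 fits without 1 library and was -0.27 (adjusted p = 0.446) without SNU475 control 1. The balance of the pair differed by line: KRT8 over KRT18 in TPM was 0.982 to 1.04 in the 4 PLC/PRF/5 libraries, 1.23 to 1.36 in the 4 HLF libraries and 1.78 to 2.30 in the 4 SNU475 libraries, with no overlap. KRT8 and KRT18 lie beside each other on chromosome 12, and both have many processed pseudogenes. Counts on 51 KRT8 pseudogenes came to 0.229% to 0.468% of KRT8 and those on 67 KRT18 pseudogenes to at most 0.088% of KRT18.

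The bile duct keratins parted from each other. KRT19 had 1193 and 1432 counts in the PLC/PRF/5 controls and 1803 and 824 in the SNU475 controls, against 2 and 0 in the HLF controls. It was 1360-fold higher in PLC/PRF/5 than in HLF, with a counting interval from 375 to 11200, and 1460-fold higher in SNU475 than in HLF, with an interval from 404 to 12100 (adjusted p = 4.95e-07 and 8.23e-07, edgeR). KRT7 had instead its highest level in HLF, at 7.65 and 7.11 CPM, with 5.29 and 4.09 CPM in SNU475 and 2.71 and 1.74 CPM in PLC/PRF/5. It was called only between PLC/PRF/5 and HLF (-1.73 ± 0.47, adjusted p = 0.0110, edgeR), and not without HLF control 1 or PLC/PRF/5 control 2 (adjusted p = 0.0558 and 0.104). KRT23, a keratin seen in some liver and colon cancers, had 138 and 181 counts in the PLC/PRF/5 controls, 1 and 4 in SNU475 and 0 in all 4 HLF libraries. Against a floor of 3 counts over the HLF controls it was at least 110-fold higher in PLC/PRF/5 (adjusted p = 2.58e-05, edgeR). It was also called higher in SNU475 than in HLF (adjusted p = 0.0430, edgeR), at a bound of at least 1.85-fold, a call lost with the replicate block (adjusted p = 0.0502) and under 7 of the 12 fits without 1 library. KRT80, a keratin linked to desmosomes and the neighbor of KRT7, was at 78.2 and 128 CPM in the HLF controls, 95 and 83.4 CPM in SNU475 and 21.8 and 13.3 CPM in PLC/PRF/5. It was lower in PLC/PRF/5 than in HLF by -2.55 ± 0.51 and than in SNU475 by -2.35 ± 0.51 (log2, adjusted p = 0.00188 and 0.00271, edgeR).

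VIM, vimentin, was at 6784 and 4750 CPM in the HLF controls, 4559 and 6280 CPM in the SNU475 controls and 517 and 368 CPM in the PLC/PRF/5 controls. HLF and SNU475 overlapped and PLC/PRF/5 was below both. The log2 difference was -3.70 ± 0.33 for PLC/PRF/5 against HLF and -3.61 ± 0.33 against SNU475 (adjusted p = 4.43e-06 and 5.74e-06, edgeR). In TPM, VIM was 0.894 to 1.03 times the sum of the 6 keratins in the HLF libraries and 0.0573 to 0.0761 times in the PLC/PRF/5 libraries. In SNU475 the libraries numbered 1 were at 0.463 times (control) and 0.459 times (lactate), and those numbered 2 at 1.06 and 0.970 times.

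**Figure D3:**
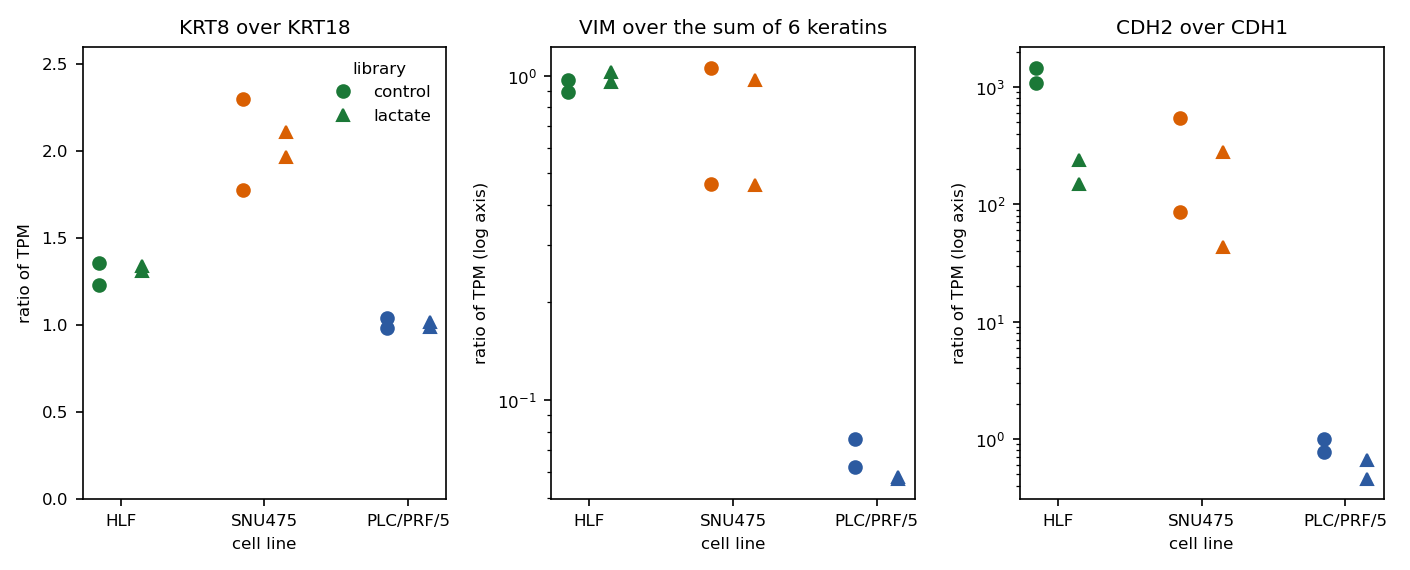
Ratios of deposited TPM (y axes; the middle and right axes are logarithmic) by line (x axis), each point being 1 library, with circles for control and triangles for lactate. KRT8 over KRT18 is ordered PLC/PRF/5, HLF, SNU475 without overlap, and VIM over the 6 keratins splits the SNU475 libraries into pairs near 0.46 and 1. CDH2 over CDH1 falls from 1460 in an HLF control, which rests on 7 counts of CDH1, to 0.461 in a PLC/PRF/5 lactate library.

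Of the 3 genes of epithelial identity, the 2 regulators were high in PLC/PRF/5 and the adhesion molecule was near 0 counts in every line. ESRP2, which directs epithelial splicing, had 734 and 1036 counts in the PLC/PRF/5 controls, 6 and 7 in HLF and 0 and 2 in SNU475. Its log2 difference was 7.10 ± 0.40 for PLC/PRF/5 against HLF (adjusted p = 2.04e-07, edgeR), and it was 822-fold higher than in SNU475, with a counting interval from 227 to 6800 (adjusted p = 1.34e-07, edgeR). It was also called lower in SNU475 than in HLF (adjusted p = 0.0214, edgeR) on 2 against 13 counts, a call lost without HLF control 2 or SNU475 control 1 (adjusted p = 0.0825 and 0.219). ELF3, an epithelial transcription factor of the ETS family, was at 185 and 203 CPM in PLC/PRF/5, 31.6 and 24.6 CPM in HLF and 47.9 and 8.05 CPM in SNU475. It was higher in PLC/PRF/5 than in HLF by 2.79 ± 0.58 and than in SNU475 by 2.79 ± 0.58 (log2, adjusted p = 0.00237 and 0.00212, edgeR). Against SNU475 the difference was 4.59 without SNU475 control 1 and 2.02 without SNU475 control 2, and was called in both. EPCAM, the epithelial adhesion molecule and a marker of liver progenitor cells, had at most 17 counts in any of the 12 libraries and was called in no comparison.

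A further 84 genes of the same structures and their regulators were read beside the 36, and 65 of them were tested. Between PLC/PRF/5 and HLF 31 were called higher and 9 lower, where 21.7% and 21.3% of all genes were. Between PLC/PRF/5 and SNU475 they were 25 higher and 19 lower, beside 22.4% and 26.3%, and between SNU475 and HLF 18 higher and 6 lower, beside 21.9% and 17.2%. The 3 calls with the smallest p in each direction are named here. SPINT2, an inhibitor of epithelial surface proteases, was at 347 CPM in the PLC/PRF/5 controls on average against 0.693 in HLF and 0.653 in SNU475. KRT20, a keratin of intestinal and urothelial cells, averaged 252 CPM in PLC/PRF/5 with 0 counts in the HLF controls and 2 in the SNU475 controls, and was at least 3290-fold higher than in HLF. The desmocollin DSC3 averaged 74.3 CPM in PLC/PRF/5 against 2.49 in HLF and 2.28 in SNU475. LMNA, which encodes the nuclear lamins A and C, was lower in PLC/PRF/5, at 289 CPM against 1800 in HLF and 1560 in SNU475. JAM3, a junction adhesion molecule, and the desmoglein DSG3 were lower in PLC/PRF/5 than in HLF, at 2.51 against 87.1 CPM and 0.103 against 10.6 CPM. CLDN11, a claudin of myelin and testis, averaged 135 CPM in SNU475 with 0 counts in the HLF controls, at least 1760-fold higher. SNU475 also stood above HLF in 2 filament genes of neural cells, the neurofilament NEFL at 170 against 0.0527 CPM and nestin, NES, at 174 against 2.69 CPM. Lower in SNU475 than in HLF were DSG3 at 0.0281 against 10.6 CPM, the regulator KLF4 at 1.45 against 7.87 CPM, and CLDN16, a claudin of the kidney, which had 0 against 26 counts and was at least 7.79-fold lower. NEFL and CLDN11 were also lower in PLC/PRF/5 than in SNU475, at 8.38 and 0.272 CPM. All of these passed an adjusted p under 0.05 in edgeR, the largest being 0.00326 for CLDN16.

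With lactate, none of the 34 genes was called in HLF, SNU475 or PLC/PRF/5, on the mean of the 3 lines or in the test that the 3 effects differ (edgeR). Among all genes 0% were called in HLF, 0% in SNU475, 0% in PLC/PRF/5 and 0% in the test of the difference, and on the mean 0.305% were called higher and 0.114% lower. At an unadjusted p under 0.05 there were 3 of the 34 in HLF, 14 in SNU475, 2 in PLC/PRF/5, 10 on the mean and 8 in the test of the difference. The shares of all genes at that level were 6.28%, 11.6%, 5.92%, 15.8% and 3.51%. The median log2 effect of the 34 was 0.19 in HLF, 0.68 in SNU475, 0.02 in PLC/PRF/5 and 0.26 on the mean, against 0, 0.01, 0.03 and 0.03 over all genes. The effect was above 0 for 23 genes in HLF, 29 in SNU475, 17 in PLC/PRF/5 and 27 on the mean. When 1 library was left out, these counts lay between 20 and 25, 22 and 31, 14 and 17, and 22 and 28. Both lactate libraries lay above both controls for 12 of the 34 in HLF, where 19.6% of all genes did, for 13 in SNU475 beside 16.2%, and for 8 in PLC/PRF/5 beside 28.5%. They lay below both controls for 6 in HLF beside 19.9% of all genes, for 0 in SNU475 beside 15.4% and for 12 in PLC/PRF/5 beside 21.8%. In none of the 34 did the same direction hold in all 3 lines, where 2.72% of all genes were above and 3.37% below in all 3. Taken by same-numbered pairs, lactate was above control in all 6 pairs for 4 of the 34, CDH1, CLDN4, CLDN12 and DSG2, where 7.25% of all genes were, and below in all 6 for 0, where 7.57% of all genes were.

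**Figure D4:**
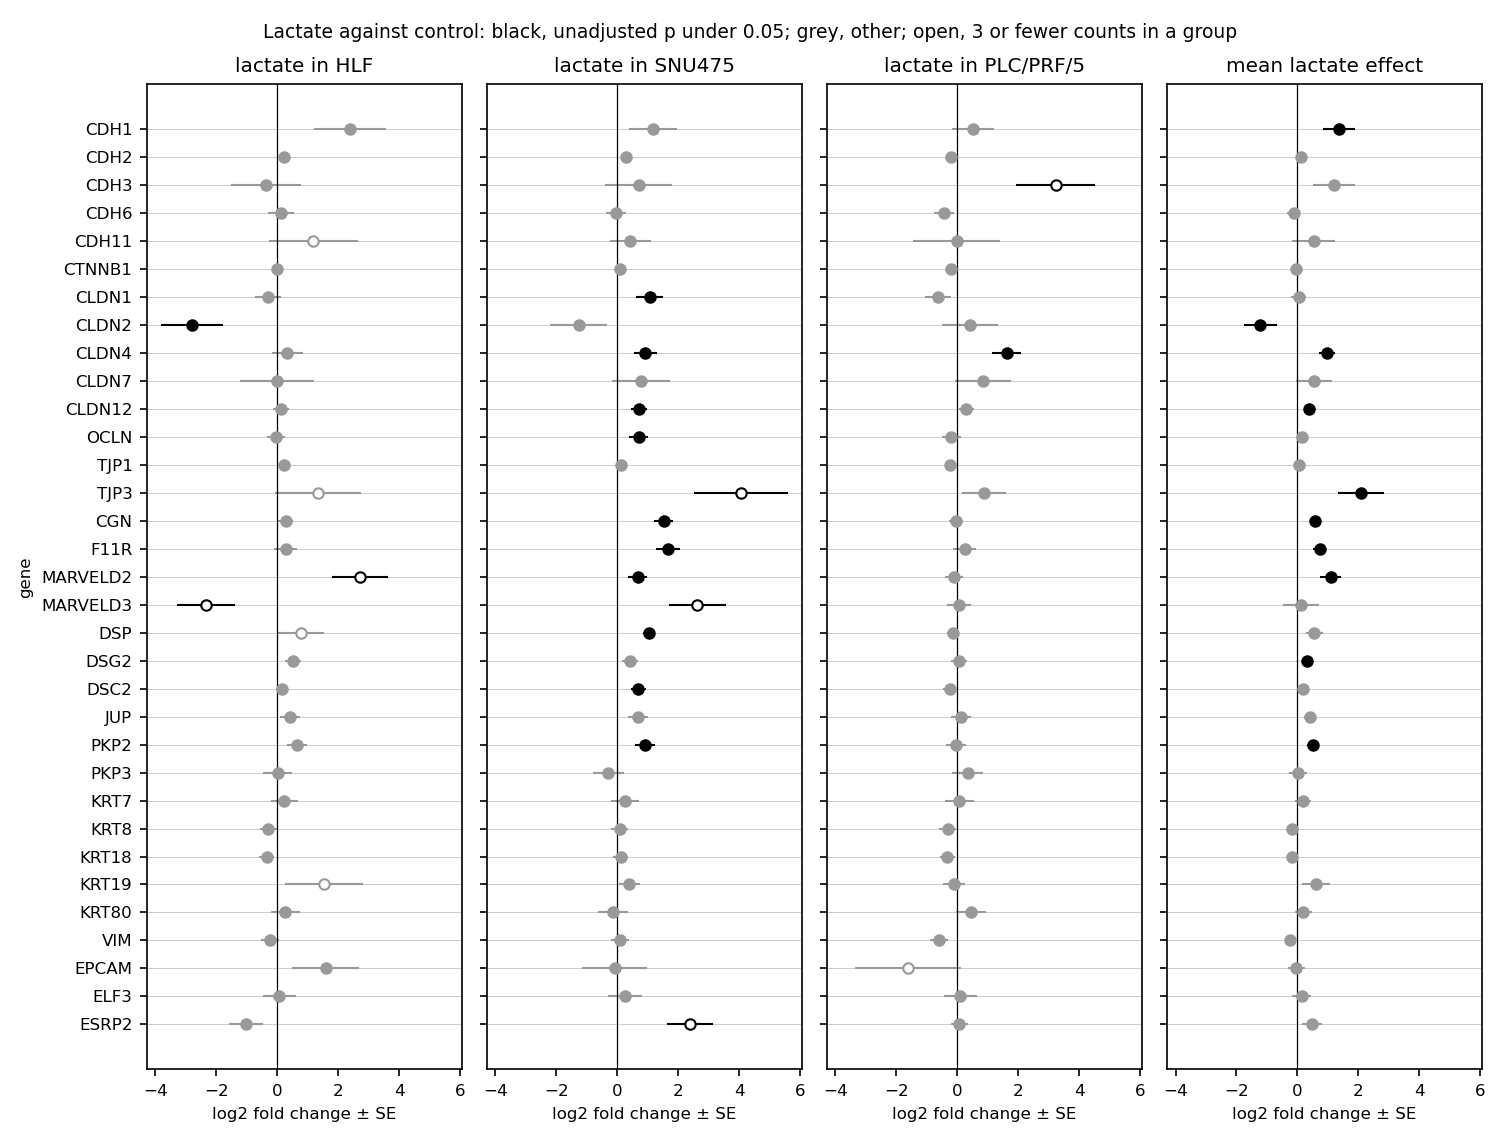
Log2 fold change ± SE (x axis) of lactate against control for 33 genes (y axis; KRT23, with 0 counts in all HLF libraries, is left out) in each line and on the mean of the 3 lines; black points have an unadjusted p under 0.05, grey points do not, and open points have 3 or fewer counts in a group. Most SNU475 points lie right of 0, the PLC/PRF/5 points lie on both sides, and none was called. The SE is derived from the test's F statistic, and for open points it can be narrower than counting error.

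CDH1 had the same direction in every same-numbered pair. It had 7 and 5 counts in the HLF controls and 42 and 29 with lactate, 121 and 15 in the SNU475 controls and 242 and 33 with lactate, and 2235 and 2585 in the PLC/PRF/5 controls and 4081 and 4128 with lactate. Scaled to depth this was 0.348 and 0.264 against 1.91 and 1.35 CPM in HLF, 6.81 and 0.863 against 15.1 and 2.24 CPM in SNU475, and 126 and 129 against 158 and 209 CPM in PLC/PRF/5. The lactate libraries were above both controls in HLF and PLC/PRF/5, while in SNU475 the gap between the libraries numbered 1 and 2 was larger than the gap with lactate. The mean log2 effect was 1.36 ± 0.53 (adjusted p = 0.238, edgeR), in a fit that called 0.305% of all genes higher on the mean. With the replicate number as a block it was 1.37 (adjusted p = 0.00170, edgeR), in a fit that called 4.12% of all genes higher on the mean. Without both SNU475 libraries numbered 2 it was 1.35. Leaving out 1 library gave 0.71 without SNU475 lactate 1 to 2.08 without SNU475 control 1, and no call in any of the 12 fits. The cadherin CDH2 gave 0.22 ± 0.18 in HLF and 0.30 ± 0.18 in SNU475, but -0.20 ± 0.18 in PLC/PRF/5. Lactate and control libraries did not overlap in any line, and none of these was called. On the mean CDH2 gave 0.11 ± 0.10 (adjusted p = 0.692, edgeR). In PLC/PRF/5, CDH3 had 2 and 1 counts in the controls and 22 and 15 with lactate, a pooled ratio of 10.2 with a counting interval from 3.24 to 51.9 (adjusted p = 0.789, edgeR).

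Among the claudins, CLDN4 was above control in all 6 pairs. It was at 1.24 and 0.632 CPM in the HLF controls and 1.32 and 1.07 with lactate, 50.7 and 33.8 CPM in the SNU475 controls and 53.1 and 108 with lactate, and 0.902 and 1.49 CPM in the PLC/PRF/5 controls and 2.83 and 4.66 with lactate. The groups did not overlap in the latter 2 lines. The mean log2 effect was 0.96 ± 0.27 (adjusted p = 0.116, edgeR; 0.0381 with the replicate block). CLDN12 gave 0.38 ± 0.15 on the mean (adjusted p = 0.251, edgeR). CLDN2 had the opposite sign, at -1.21 ± 0.55 (adjusted p = 0.314, edgeR), with 40 and 24 counts in the HLF controls and 1 and 9 with lactate, and was -1.95 without HLF lactate 2. CLDN1, the leading claudin of HLF and PLC/PRF/5, was in both these lines below both controls in both lactate libraries. It was at 188 and 185 CPM in the HLF controls and 130.5 and 171 with lactate (-0.31 ± 0.43, adjusted p = 0.967, edgeR). In PLC/PRF/5 it was at 1218 and 868 CPM in the controls and 753 and 586 with lactate (-0.64 ± 0.43, adjusted p = 0.955, edgeR). In SNU475 it had 137 and 293 counts in the controls and 217 and 563 with lactate, which overlap. Its effect in SNU475 was 1.07 ± 0.45 (adjusted p = 0.388, edgeR; 0.0451 with the replicate block), and on the mean of the 3 lines it was 0.04 ± 0.25. In SNU475 it ranged from 0.13 (adjusted p = 0.951) without SNU475 lactate 2 to 1.74 (adjusted p = 0.643) without SNU475 control 2.

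The other tight junction genes gave values above 0 in all 7 on the mean and in all 7 in SNU475. In SNU475, 6 of the 7 had an unadjusted p under 0.05 beside 11.6% of all genes. Above 0 were 5 of the 7 in HLF and 3 of the 7 in PLC/PRF/5, with median log2 effects of 0.27 and -0.05. MARVELD3 gave 0.12 ± 0.59 on the mean. It had 10 counts in the HLF controls and 2 with lactate, but 2 in the SNU475 controls and 12 with lactate, 10 of them in SNU475 lactate 1. CGN had 18 and 11 counts in the SNU475 controls and 29 and 44 with lactate, without overlap, a log2 effect of 1.53 ± 0.32 (adjusted p = 0.230, edgeR) that was 0.82 without both SNU475 libraries numbered 2. On the mean it was 0.58 ± 0.15 (adjusted p = 0.106, edgeR; 0.0453 with the replicate block). F11R was at 26.7 and 10.6 CPM in the SNU475 controls and 40.6 and 78.0 with lactate, an effect of 1.67 ± 0.40 (adjusted p = 0.265, edgeR) and of 0.73 ± 0.22 on the mean (adjusted p = 0.144, edgeR). The SNU475 value was 2.47 without SNU475 control 1 and 0.60 without both SNU475 libraries numbered 2. MARVELD2 was at 13.8 and 12.3 CPM in the SNU475 controls and 16.2 and 25.5 with lactate (0.67 ± 0.30, adjusted p = 0.426, edgeR), and had 1 count in the HLF controls and 9 with lactate. OCLN gave 0.70 ± 0.31 in SNU475 (adjusted p = 0.420, edgeR), with 0.21 to 1.08 when 1 library was left out. The value of TJP3 rested on 1 library: in SNU475 it had 1 and 0 counts in the controls and 18 and 0 with lactate. Its mean effect of 2.10 ± 0.75 (adjusted p = 0.204, edgeR; 0.0198 with the replicate block) became -0.07 without SNU475 lactate 1.

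In the desmosome, DSP had the smallest unadjusted p of the 34 genes in any lactate comparison. It was at 84.0 and 70.9 CPM in the SNU475 controls and 149 and 170.5 with lactate, without overlap, a log2 effect of 1.04 ± 0.19 (adjusted p = 0.230, edgeR; 0.0325 with the replicate block). In PLC/PRF/5 it was at 323 and 335 CPM in the controls and 277 and 320 with lactate, an effect of -0.14 ± 0.18, and HLF had 2 counts in the controls and 4 with lactate. The test that the effect differs between lines gave an adjusted p of 1 for DSP and for CGN (edgeR), so a difference between lines was not called for either. DSC2 and PKP2 gave 0.69 ± 0.26 and 0.92 ± 0.33 in SNU475 (adjusted p = 0.326 and 0.321, edgeR). DSG2 was above control in all 6 pairs at 0.33 ± 0.15 on the mean (adjusted p = 0.314, edgeR), and PKP2 gave 0.51 ± 0.19 (adjusted p = 0.221, edgeR).

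The main filament genes were not called. KRT8 and KRT18 each gave -0.18 on the mean (± 0.16 and ± 0.14), and VIM gave -0.25 ± 0.17 (adjusted p = 0.655, 0.598 and 0.525, edgeR). VIM was at 517 and 368 CPM in the PLC/PRF/5 controls and 319 and 271 with lactate, an effect of -0.59 ± 0.29 (adjusted p = 0.863, edgeR). KRT23 had 138 and 181 counts in the PLC/PRF/5 controls and 329 and 321 with lactate (0.79 ± 0.45, adjusted p = 0.924, edgeR), and 5 counts in the SNU475 controls and 26 with lactate (2.50 ± 0.70, adjusted p = 0.282, edgeR), with 1.83 to 3.75 when 1 library was left out. ELF3 gave 0.14 ± 0.31 and ESRP2 0.47 ± 0.34 on the mean. Of the 65 further genes tested, 0 were called in any lactate comparison, and 3, 8, 7 and 10 had an unadjusted p under 0.05 in HLF, SNU475, PLC/PRF/5 and on the mean, beside the 6.28%, 11.6%, 5.92% and 15.8% of all genes.

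Within SNU475, several of the genes differed between the libraries numbered 1 and 2 in the same direction in both treatments. With 0.1 CPM added, CDH1 was higher in number 1 by 2.84 on the log2 scale in the controls and 2.70 with lactate, and CLDN7 by 2.78 and 3.40. In the other direction CDH11 was at -1.76 and -1.69, CLDN1 at -1.12 and -1.49, OCLN at -0.69 and -0.85 and VIM at -0.46 and -0.69. KRT19 was higher in number 1 by 1.10 and 0.82, and so, by less, was the neural cadherin CDH2, by 0.31 and 0.06. Genes of epithelial junctions thus lay on both sides, CDH1 and CLDN7 being higher and CLDN1 and OCLN lower in number 1. Others changed side with treatment: F11R was at 1.32 in the controls and -0.94 with lactate, and CLDN4 at 0.59 and -1.02. The summed TPM of the 10 stellate cell and fibroblast markers went with the numbers too, at 1548 and 1854 in those numbered 1 and 954.5 and 963 in those numbered 2, as did the mitochondrial share given above. The part of these in the differences was not tested. In these bulk libraries fewer cells of a kind and less RNA per cell cannot be told apart.

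**Figure D5:**
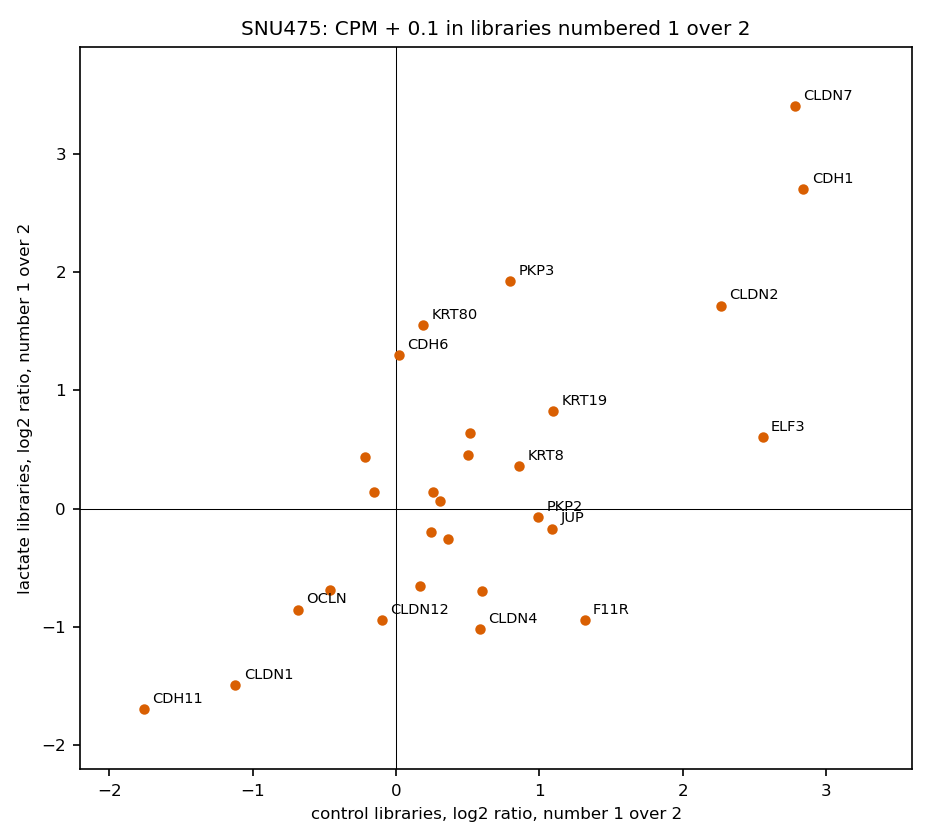
SNU475 libraries: log2 ratio of CPM + 0.1 in number 1 over number 2 for the controls (x axis) and the lactate libraries (y axis), each point being 1 of the 28 genes with at least 20 counts in both groups. CDH1, CLDN7 and CLDN2 lie at the upper right and CDH11 and CLDN1 at the lower left, while F11R and CLDN4 lie at the lower right.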

How the data were processed

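RNA of 12 libraries (3 lines, control or lactate, 2 libraries each) was read from 1 gene table per library. The tables hold RSEM expected counts, estimated counts that need not be whole, deposited by the authors, and the deposited TPM of RSEM, per the file headers. The tables also hold effective lengths. FastQC, STAR, RSEM and DESeq2 are named in the submitters' processing notes, with the mouse builds GRCm38 and mm10, while all 62757 rows carry human identifiers, so the build used is not given in the sources used here. Per the labels' protocols the kit marks strand.

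Expected counts were rounded, 47 rows for pseudoautosomal genes on Y were summed with those on X, and low counts were filtered by filterByExpr in edgeR 4.0.16 (R 4.3.3), leaving 18355 genes. TMM factors lay between 0.794 and 1.165. The robust quasi-likelihood test used all 12 libraries in 6 groups, with 6 residual degrees of freedom and a common biological coefficient of variation of 0.26, and Benjamini-Hochberg adjustment over all genes. The SE after ± was not estimated apart: it is the absolute log2 difference divided by the square root of the test's F statistic. Against groups with 3 or fewer counts it can be narrower than counting error. The script was tested on simulated data. Where a group had 3 or fewer counts, folds are ratios of pooled counts with exact 95% intervals, or bounds at a floor of 3 counts over the group, both covering counting error only. At these depths 1 count is about 0.05 CPM, so the lowest levels rest on single counts.

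Same-numbered libraries deviated together from their group means in SNU475 (correlation of 0.446), but little in HLF and PLC/PRF/5 (0.101 and 0.132). The labels do not say that the numbers mark pairs. The main fit ignored them. They were taken as pairs in all 3 lines only for the counts of pairs and for the blocked fit, which is given where it changes a call. For PLC/PRF/5 the library numbered 2 in the titles carries 3 in the deposited names. The 36 genes, the lists and the tests were chosen with earlier results of these data known. All 36 genes are named, and of 84 further genes the 3 higher and 3 lower calls with the smallest p in each comparison. Alternatives were DESeq2 1.42.0, limma-voom (limma 3.58.1), RLE scaling, other filters, effective lengths as offsets, the block, a test against a fold of 2, smaller fits and leaving out libraries.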

Additional observations from a re-analysis of the deposited data

How the results depend on the processing

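Directions of the called differences between lines held under every alternative run; calls of the 34 lost without 1 library are given beside the genes. Tested against a fold of 2, 16 of the 26 calls between PLC/PRF/5 and HLF held, and 11 of the 17 between SNU475 and HLF. The genes called higher were 12 and 6 of these, beside 12% and 12.3% of all genes. The rest were called lower, beside 10.1% and 6.59% of all genes. Between PLC/PRF/5 and SNU475, 12 were called higher and 5 lower, beside 10.9% and 14.7%. Without both SNU475 libraries numbered 2, 11 were called lower in PLC/PRF/5 than in SNU475. CDH1 and CLDN7 in SNU475 against HLF were not called by limma-voom (adjusted p = 0.117 and 0.193), nor was CLDN7 with effective lengths as offsets (adjusted p = 0.178) or ESRP2 by DESeq2 (adjusted p = 0.0641). In all, effective lengths lost 2 calls in that comparison and the stricter filter 1. Between PLC/PRF/5 and SNU475, 1 call was lost with effective lengths and 1 when the controls were fitted alone. Between PLC/PRF/5 and HLF, OCLN missed the threshold with RLE scaling (adjusted p = 0.0520), CLDN7 with limma-voom (0.0501) and JUP when the controls were fitted alone (0.0549).

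The lactate counts of 0 moved more, and the counts over all genes moved in the same fits. In HLF, 1 gene was called higher without a filter, beside 64 of all genes (0.199%). In SNU475, 3 were called higher by DESeq2, 6 without a filter and 2 with the replicate block, beside 157, 267 and 33 of all genes (0.855%, 0.832% and 0.18%). In PLC/PRF/5, 1 was called higher without a filter and 1 when each line was fitted alone, beside 160 and 396 of all genes (0.499% and 2.57%). On the mean, 3 were called higher by DESeq2, 4 without a filter and 4 with the replicate block. Beside them were 525, 613 and 756 of all genes (2.86%, 1.91% and 4.12%). In the test of the difference between lines, 2 were called without a filter, beside 136 of all genes (0.424%). Leaving out 1 library gave 0 to 7 called higher and 0 to 1 called lower in SNU475 and 0 to 5 called higher on the mean, the largest counts each coming without SNU475 lactate 1, where 4.37% of all genes were called higher and 4.84% lower in SNU475 and 3.67% higher on the mean, and 1 on the mean without SNU475 control 1 or SNU475 lactate 2. The lone library left is then assumed to vary like the other groups. TJP3 ranged from -2.45 to 6.49 in SNU475 and from -0.07 to 2.91 on the mean, both lowest without SNU475 lactate 1. The cause of these shifts was not tested. With the replicate block, the call of F11R between PLC/PRF/5 and HLF (adjusted p = 0.0555) and of KRT23 between SNU475 and HLF (adjusted p = 0.0502) were the ones lost between lines. No scaling moved the median of all genes by over 0.1 on the log2 scale. Fitted folds against groups with 3 or fewer counts also moved when 1 of those libraries was left out, and pooled ratios are given for them.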

Other observations

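Among the 65 further genes tested, KRT81, a hair keratin of type II, had the smallest unadjusted p for lactate on the mean of the 3 lines, at a log2 effect of 1.47 ± 0.34 (adjusted p = 0.0837, edgeR). NECTIN2, an adhesion molecule of adherens junctions, gave 0.41 ± 0.13 on the mean (adjusted p = 0.149, edgeR) and PATJ, a polarity scaffold of tight junctions, 0.64 ± 0.21 (adjusted p = 0.174, edgeR). These 3 were chosen after their values were seen, and none was called.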
